A study of Homo sapiens with 10 samples.

Results

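Microtubules are hollow filaments built from dimers of alpha and beta tubulin, and they form the mitotic spindle, carry cargo along the cell and are the target of taxanes and vinca alkaloids. Humans have several genes, called isotypes, for each subunit. Free tubulin dimers feed back on the stability of tubulin mRNA while it is being translated, and the isotypes differ mostly at their carboxy-terminal tails, where enzymes add or remove tyrosine and glutamate. The 10 tubulin genes described here, of 61533 genes in the deposited tables, were chosen by name as the main alpha and beta isotypes. They comprise the alpha genes TUBA1A, TUBA1B, TUBA1C and TUBA4A and the beta genes TUBB, TUBB2A, TUBB2B, TUBB3, TUBB4B and TUBB6.

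RNA-seq compared 5 libraries of the human bladder cancer line T24 with 5 libraries of T24R2, which was derived from T24 by serial exposure to cisplatin and is resistant to that drug. All cells were harvested on day 3 of growth, and the labels list RPMI with serum and antibiotics for both lines. The study's methods state that T24R2 was kept in medium with cisplatin, so resistance of the line and presence of the drug cannot be told apart. Each line is a single line, and nothing states that its 5 replicates came from separate cultures, so p-values measure the spread between these samples, which may be technical.

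Fragment counts per library totalled 9257843 to 10840954. Within each line, all 10 pairs of replicates differed by more than sampling noise, with a chi-square of 2.01 to 7.2 for each degree of freedom. Among 14 urothelial and epithelial marker genes the summed level was 5005 to 5739 CPM (counts scaled to library size, with TMM scaling) in T24 and 3028 to 3232 CPM in T24R2. KRT20, a marker of umbrella cells, was at 0 counts in every library, and UPK1B had at most 1 count. The keratin gene KRT19 had a mean of 267 CPM in T24 and 0.0887 CPM in T24R2, and the transcription factor gene GATA3 had 22.1 and 0.214 CPM. Other members of the list were measured in both lines, with KRT7, KRT8 and KRT18 at 691 to 2242 CPM, PPARG at 75.9 and 26.2 CPM, FOXA1 at 66.7 and 13.8 CPM and UPK2 at 9.90 and 2.74 CPM. All 8 tested genes of the list were called lower in T24R2, against 26.5% of all tested genes.

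The isotypes are close paralogs, which bears on every count below because the authors counted only uniquely aligned fragments. Coding sequences of the 4 alpha genes were 84.4% to 97.2% identical over 6 pairs, and those of the 6 beta genes were 80.9% to 98.1% identical over 15 pairs. TUBB2A and TUBB2B were the closest pair at 98.1%, followed by TUBA1A and TUBA1B at 97.2%. The last 45 bases of the coding sequence are shown for TUBA1C, TUBA4A and the 6 beta genes, with the stop codon in capitals. They were read from the hg38 genome by the MANE Select transcript (the reference transcript shared by GENCODE and RefSeq) and are written 5′ to 3′ on the coding strand.
TUBA1C: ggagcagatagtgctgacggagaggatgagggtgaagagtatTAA
TUBA4A: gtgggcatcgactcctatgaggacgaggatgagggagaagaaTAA
TUBB: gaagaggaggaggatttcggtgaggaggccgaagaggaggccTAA
TUBB2A: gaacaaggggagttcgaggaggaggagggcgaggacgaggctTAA
TUBB2B: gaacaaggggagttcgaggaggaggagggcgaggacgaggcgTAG
TUBB3: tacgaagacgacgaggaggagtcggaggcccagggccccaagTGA
TUBB4B: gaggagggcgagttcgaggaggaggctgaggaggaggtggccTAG
TUBB6: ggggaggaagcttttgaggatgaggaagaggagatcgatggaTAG

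A fragment lying wholly within a stretch that is repeated elsewhere cannot be placed uniquely. Of all windows of 150 bases along the MANE Select transcript, the share found exactly elsewhere in the genome or in another tubulin transcript was 48.7% for TUBB2A and 41.6% for TUBB2B. It was 19.1% for TUBA1B, 8.01% for TUBA1A, 7.22% for TUBA1C, 2.66% for TUBB and 2.31% for TUBB3. For TUBB4B, TUBB6 and TUBA4A, 0% of windows were repeated.

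The start of the coding sequence is what the autoregulation factor TTC5 recognizes once it has been translated. It is shown for the most abundant alpha and beta isotype per kilobase, with the first 12 bases in capitals, which encode the recognized residues.
TUBA1B: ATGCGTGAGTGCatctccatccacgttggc
TUBB4B: ATGAGGGAAATCgtgcacttgcaggccggg

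TUBA1B (ENSG00000123416, chr12:49127782-49131397, minus strand) had 2231, 2553, 2308, 2015 and 2383 CPM in T24 replicates 1 to 5. In T24R2 it had 746, 802, 930.3, 809.6 and 804.5 CPM. Every T24R2 library lay far below every T24 library, and the mean fell from 2298 ± 198 to 819 ± 67.6 CPM (SD, n = 5 per line), or to 35.6% of its level in T24. The log2 fold change of T24R2 against T24 was -1.49 (SE 0.052) with a Benjamini-Hochberg adjusted p of 4.42e-26 by the quasi-likelihood test of edgeR across all tested genes. An exact two-sided permutation test of the CPM values gave p = 0.00794, the smallest value that 5 against 5 samples can give. The RNA came from whole cultures, so fewer cells with a transcript and less of it per cell cannot be told apart.

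TUBA1C (ENSG00000167553, chr12:49188736-49274600, plus strand), a close neighbour of TUBA1B, had 704, 786.5, 723, 648 and 731.5 CPM in the T24 libraries. Its T24R2 libraries had 299, 304, 350.4, 311 and 313 CPM. The lines did not overlap, and TUBA1C fell to 43.9% of its T24 level, from 718.5 ± 50.0 to 315 ± 20.4 CPM (SD, n = 5). By edgeR's test with Benjamini-Hochberg adjustment, the log2 fold change was -1.19 (SE 0.048, adjusted p = 8.38e-24).

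TUBA1A (ENSG00000167552, chr12:49184686-49189080, minus strand) lies between them and is the alpha isotype best known from developing neurons. It had 155, 164, 146.5, 137 and 155 CPM in T24 and 118, 113, 135, 113 and 112 CPM in T24R2. The difference was in the same direction but smaller: the lines did not overlap, the mean in T24R2 was 78.0% of that in T24, and the log2 fold change was -0.36 (SE 0.055). Although edgeR's Benjamini-Hochberg adjusted p was 2.05e-07, TUBA1A did not reach the fold change of 0.5 on the log2 scale that the study required for a call.

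TUBA4A (ENSG00000127824, chr2:219249710-219277902, minus strand), whose coding sequence does not end in a tyrosine codon, was the least abundant alpha isotype per kilobase. T24 libraries had 102, 97.8, 97.9, 96.7 and 97.3 CPM, and T24R2 libraries had 51.8, 52.6, 67.0, 51.8 and 54.7 CPM. Thus TUBA4A was the tightest of the alpha genes in T24 and fell to 56.5% in T24R2, without overlap of the lines. Its log2 fold change was -0.82 (SE 0.061, adjusted p = 2.22e-15 by edgeR with Benjamini-Hochberg adjustment).

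Among the beta genes, TUBB4B (ENSG00000188229, chr9:137241287-137243707, plus strand), a broadly expressed isotype, had the largest fall of the well-measured ones. It had 1021, 1106, 1041, 928 and 1055 CPM in T24 and 367, 368, 386, 363 and 379 CPM in T24R2. The mean fell from 1030 ± 65.4 to 373 ± 9.52 CPM (SD, n = 5), which is 36.2% of the level in T24, with no overlap. The log2 fold change in edgeR's test was -1.47 (SE 0.044, Benjamini-Hochberg adjusted p = 3.06e-28).

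TUBB (ENSG00000196230, chr6:30717435-30725538, plus strand), the most widely expressed beta isotype of dividing cells, had 526, 603.5, 550.0, 486 and 570.4 CPM in T24. In T24R2 its values were 322, 325, 311, 310.2 and 324 CPM. All T24R2 values lay below the lowest T24 value, and the mean of T24R2 was 58.2% of that of T24. This gave a log2 fold change of -0.78 (SE 0.047, adjusted p = 2.98e-18 by edgeR with Benjamini-Hochberg adjustment).

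TUBB6 (ENSG00000176014, chr18:12307669-12344320, plus strand), a more divergent beta isotype, had 568, 665, 623, 490.0 and 628 CPM in T24 and 407, 414, 431, 417 and 422 CPM in T24R2. The lines did not overlap, but the fall was smaller than for TUBB4B and just past the threshold for a call. The mean in T24R2 was 70.3% of that in T24, and the log2 fold change was -0.51 (SE 0.052) with an edgeR Benjamini-Hochberg adjusted p of 2.78e-11. The call was lost in 8 of 20 alternative settings. Scaling by library size only gave -0.34, and leaving out T24 replicate 2, 3 or 5 or T24R2 replicate 1 or 2 gave -0.50 to -0.47.

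**Figure D1:**
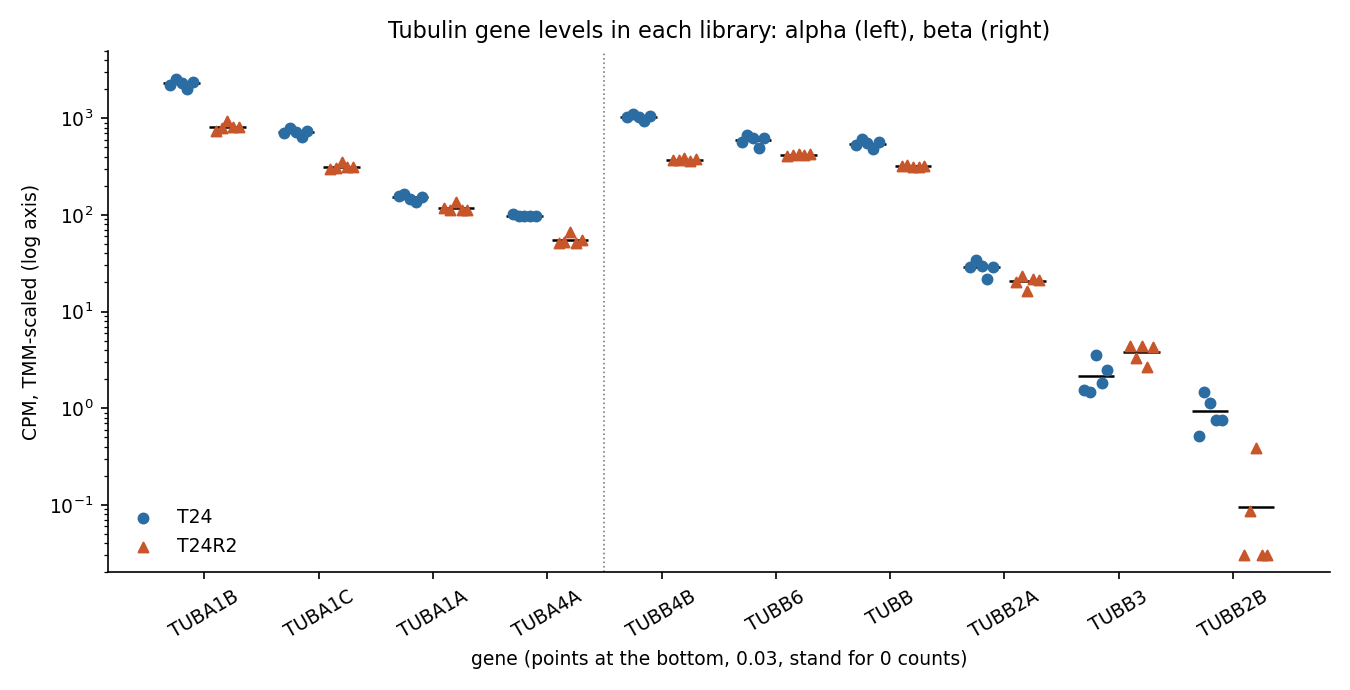
CPM (log axis) of each of the 10 tubulin genes in each of the 5 T24 (circles) and 5 T24R2 (triangles) libraries, with a black line at the mean of each line of cells. TUBA1B, TUBA1C and TUBB4B show the widest gaps among the abundant genes, TUBB2A and TUBB3 overlap between the lines, and libraries of TUBB2B with 0 counts are drawn at the bottom.

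The remaining beta genes had lower counts. TUBB2A (ENSG00000137267, chr6:3153497-3157544, minus strand) had 29.1, 34.0, 29.7, 21.9 and 28.6 CPM in T24 and 20, 23.4, 16.2, 21.65 and 21.2 CPM in T24R2. T24 replicate 4 lay within the T24R2 range, so the lines overlapped. The log2 fold change was -0.48 (SE 0.10, adjusted p = 4.66e-05 by edgeR with Benjamini-Hochberg adjustment), short of the required 0.5, and the exact permutation test gave p = 0.0159. Without T24 replicate 4 the log2 fold change was -0.57 and TUBB2A was called, and without T24R2 replicate 2 it was -0.53 and again called.

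TUBB2B (ENSG00000137285, chr6:3223324-3231730, minus strand), a beta isotype of the developing nervous system and the near-copy of TUBB2A, had only 5, 14, 10, 7 and 7 counts in T24. It had 0, 1, 4, 0 and 0 counts in T24R2, and thus failed the filter on low counts. Counts of the lines did not overlap, and the exact permutation test of its CPM gave p = 0.00794. A fit without the filter gave a log2 fold change of -3.17 (SE 0.71) and an edgeR Benjamini-Hochberg adjusted p of 3.29e-05, a value that depends on how counts of 0 are handled and on uniquely placed fragments alone.

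TUBB3 (ENSG00000258947, chr16:89921392-89938761, plus strand), an isotype of neurons that is also found in many carcinomas, was the only tubulin among the 10 with a higher level in T24R2. It had 15, 14, 31, 17 and 23 counts in T24 and 48, 38, 46, 30 and 44 counts in T24R2, so T24 replicate 3 overlapped the T24R2 libraries. These counts correspond to 2.18 ± 0.86 and 3.82 ± 0.797 CPM (SD, n = 5), a log2 fold change of 0.81 (SE 0.25) with an edgeR Benjamini-Hochberg adjusted p of 0.00369, and p = 0.0317 in the exact permutation test. TUBB3 shares 1584 exon bases on the same strand with the readthrough gene ENSG00000198211, which had at most 1 count. Those bases make up 92.8% of the MANE Select transcript and 95.8% of its coding part. Fragments overlapping both genes are assigned to neither, so the TUBB3 counts come almost wholly from the rest of its exons and do not measure the level of the coding transcript. The summed level of 10 neuronal markers was 2.21 to 3.31 CPM in T24 and 12.7 to 14.45 CPM in T24R2. Most of the difference came from NCAM1 (0.0686 and 7.67 CPM) and SYP (0.777 and 4.59 CPM), while SNAP25 of the same list was lower in T24R2 (1.57 and 0.0751 CPM). The 6 genes ELAVL3, ELAVL4, SYT1, NEFL, NEFM and GAP43 had at most 3 counts in every library. The part of these markers in the value of TUBB3 was not tested.

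In all, 9 of the 10 genes passed the filter on low counts, and 7 of these 9 (77.8%) were called, which required an adjusted p under 0.05 and a log2 fold change beyond 0.5 in either direction. Among all 16181 tested genes, 51.4% were called. Lower levels in T24R2 were called for 6 of the 9 (66.7%), against 26.5% of all tested genes. A higher level was called for 1, TUBB3, against 24.9%. Libraries of the lines did not overlap in 7 of the 9, all of them lower in T24R2, against 61.2% of all tested genes in either direction. The median log2 fold change of the 9 was -0.78 and that of all tested genes was 0.01. TUBA1B and TUBB4B lay at the lower end of all genes, with 8.34% and 8.54% of tested genes below them, whereas 84.1% lay below TUBB3. Leaving out any 1 of the 10 libraries gave 6 to 8 called tubulin genes.

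**Figure D2:**
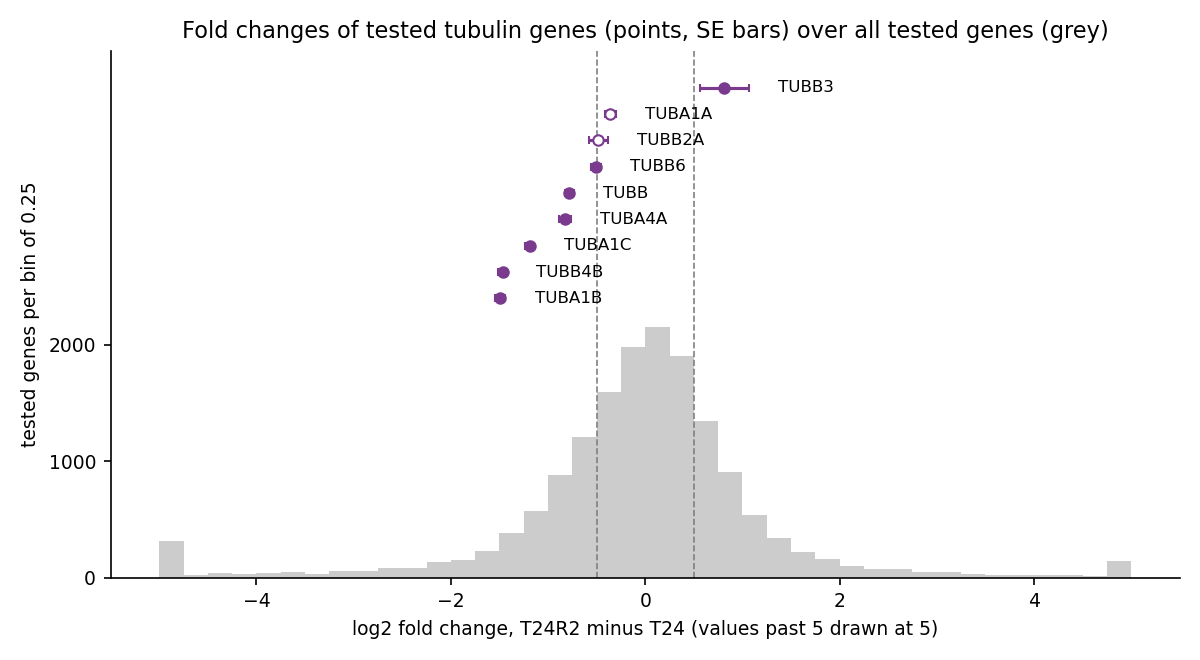
Log2 fold change of T24R2 against T24 for the 9 tested tubulin genes (points with bars of 1 SE, filled where called) above a histogram of all 16181 tested genes in grey. The points of 8 genes lie to the left of 0 and TUBB3 lies to the right, and TUBA1A and TUBB2A (open points) lie inside the dashed lines at -0.5 and 0.5.

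Summed over the 10 genes, tubulin fragments made up 0.515% ± 0.0389 of all counts in T24 and 0.258% ± 0.00996 in T24R2 (SD, n = 5). The alpha genes together had 3266 ± 258 CPM in T24 and 1308 ± 102 CPM in T24R2, and the beta genes had 2204 ± 181 and 1134 ± 16.3 CPM. The alpha sum in T24R2 was thus at 40% and the beta sum at 51.4% of the level in T24. Per kilobase of exon, the ratio of alpha to beta was 1.071 to 1.101 in T24 and 0.866 to 1.03 in T24R2, with no overlap. With the length of the MANE Select transcript in place of that of all exons the ratio was 1.46 to 1.51 in T24 and 1.11 to 1.32 in T24R2, so its value depends on the length used and its direction did not.

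The genes differed unequally between the lines, and so did the make-up of each subunit. Shares were computed from counts per kilobase of exon within each library, and they carry no test because each share depends on the others. They are not corrected for fragments that could not be placed uniquely. The share of repeated windows was 0% for TUBB4B, 19.1% for TUBA1B and 48.7% for TUBB2A. TUBA1B made up 73.8% ± 0.552 of the alpha genes in T24 and 66.2% ± 0.651 in T24R2 (SD, n = 5). The share of TUBA1A was 4.56% ± 0.15 and 8.95% ± 0.396, that of TUBA1C 18.5% and 20.5%, and that of TUBA4A 3.07% and 4.34%. TUBA1A therefore took a larger share of the alpha genes in T24R2 although its own level was lower there. Among the beta genes, TUBB4B made up 62.2% to 64.4% in T24 and 48.3% to 49.7% in T24R2. The share of TUBB6 was 18.8% in T24 and 28.3% in T24R2, that of TUBB was 16.8% and 20.9%, and that of TUBB2A was 1.23% and 1.88%. TUBB3 stood at 0.0367% and 0.137%, from counts that leave out most of its coding transcript. These values are therefore not its share of beta tubulin RNA. The libraries of the lines did not overlap in 9 of the 10 shares. These are not separate results, because each share depends on the others, and no such count over all genes was made. TUBB2B, at 0.0275% and 0.00595%, was the exception. Its overlap came from T24R2 replicate 3, without which the T24R2 share of TUBB2B was 0.00139%. With no scaling by length or with the MANE Select length, each share differed in the same direction. With the MANE Select length, TUBB4B and TUBB6 had shares of 54.4% and 26.04% in T24 and of 39.56% and 36.94% in T24R2. With no scaling by length, TUBB6 had the larger share in T24R2, at 36.89% against 32.87% for TUBB4B.

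**Figure D3:**
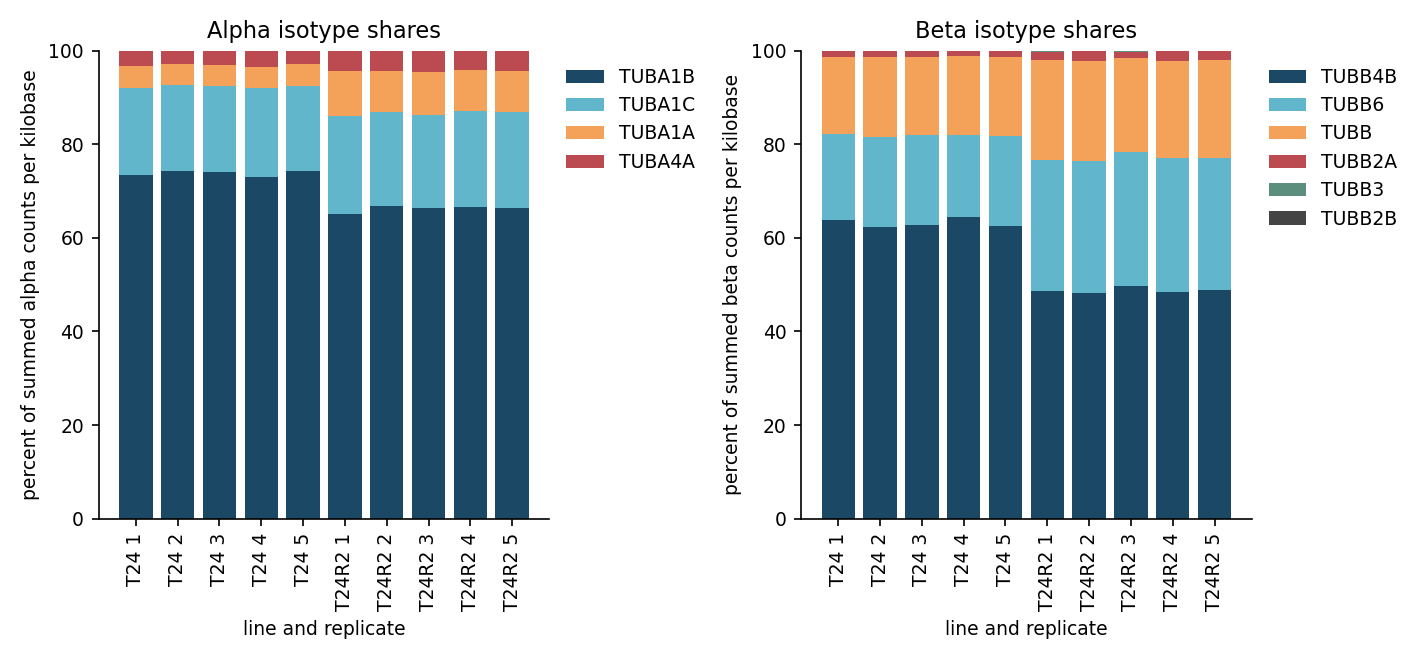
Share of each isotype in the summed counts per kilobase of the alpha genes (left) and of the beta genes (right), in percent, for each library. TUBA1B and TUBB4B, at the base of the bars, take smaller shares in the 5 T24R2 libraries than in the 5 T24 libraries, and TUBB3 and TUBB2B are too small to see.

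Reads of close paralogs can be placed on the wrong copy, which leaves the sum of the copies unchanged. TUBA1A, TUBA1B and TUBA1C summed before the fit fell from 3168 ± 258 to 1252 ± 96.1 CPM, with a log2 fold change of -1.34 (SE 0.049, adjusted p = 3.52e-25 by edgeR with Benjamini-Hochberg adjustment). TUBB2A and TUBB2B summed gave 29.6 ± 4.57 and 20.6 ± 2.56 CPM and a log2 fold change of -0.52 (SE 0.099, edgeR Benjamini-Hochberg adjusted p = 1.25e-05), which passed the threshold that TUBB2A alone had missed. The summed values still leave out fragments that aligned to more than 1 place. Of 51 annotated tubulin pseudogenes, 18 had a count and 3, TUBA5P, TUBBP1 and TUBBP2, passed the filter. All 51 together held 550 counts over the 10 libraries, or 0.142% of the counts of the 10 tubulin genes.

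Genes on the opposite strand overlapped the exons of 9 of the 10 tubulin genes, TUBB3 being the exception. Counting used a strand option of 1, so that the direction of the first read decides between overlapping genes, but whether the kit keeps the strand is not settled by the sources used here, so the split of counts between sense and antisense genes is uncertain. TUBA1B-AS1 shares 1571 exon bases with TUBA1B and covers 72.6% of its MANE Select transcript. Its counts were 16022 to 20623 in T24 and 7079 to 8800 in T24R2, which is 85.7% and 88.8% of those of TUBA1B. Fragments of TUBA1B and of its antisense partner cannot be told apart here, and both moved alike, with a log2 fold change of -1.44 for TUBA1B-AS1.

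ENSG00000258232, which overlaps 666 bases of TUBA1C, had 58.8% of the counts of TUBA1C in both lines. ENSG00000272540 overlaps 538 bases of TUBB and had 55.3% of its counts in T24 and 63.8% in T24R2. AFG3L2, which encodes a mitochondrial protease and overlaps 837 bases of TUBB6, went the other way from TUBB6, with 96.55 CPM in T24 and 124 CPM in T24R2. Those bases lie outside the MANE Select transcript of TUBB6. FAM166A, at 102 and 32.0 CPM, moved with TUBB4B, and it overlaps 124 bases of that gene. STK16, a kinase gene that overlaps 628 bases of TUBA4A, had 31.5 and 30.1 CPM and was not called. TUBA1A, with far fewer counts than either partner, shares 345 bases with TUBA1C and 68 bases with TUBA1B-AS1. BPHL overlaps TUBB2A by 82 bases and had 35.6% of its counts in T24 and 89.8% in T24R2. PSMG4 overlaps TUBB2B by 174 bases and had more counts than it in every library, and MDC1 overlaps TUBB by 13 bases.

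Whole partner counts, also those from outside the shared bases, were subtracted as an alternative, but partners that are themselves in the tubulin list were not. TUBA1A, with 21.1% of the counts of TUBA1C in T24 and 37.5% in T24R2, was therefore not subtracted from TUBA1C. The log2 fold changes were then -1.83 for TUBA1B, -1.22 for TUBB, -1.46 for TUBA4A and -0.76 for TUBB6. TUBA1C, with only ENSG00000258232 subtracted, was at -1.19, and TUBB4B was at -1.45. For TUBA1B, TUBB, TUBA4A and TUBB6 the partners fell less than the gene, did not pass the test or rose, so subtraction could only make the value more negative. After subtraction 14.3% of the TUBA1B counts remained in T24 and 11.2% in T24R2, so that value rests on a small remainder. For TUBB2A, TUBB2B and TUBA1A the partners had more counts than the gene in at least 1 library, and no value was obtained.

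**Figure D4:**
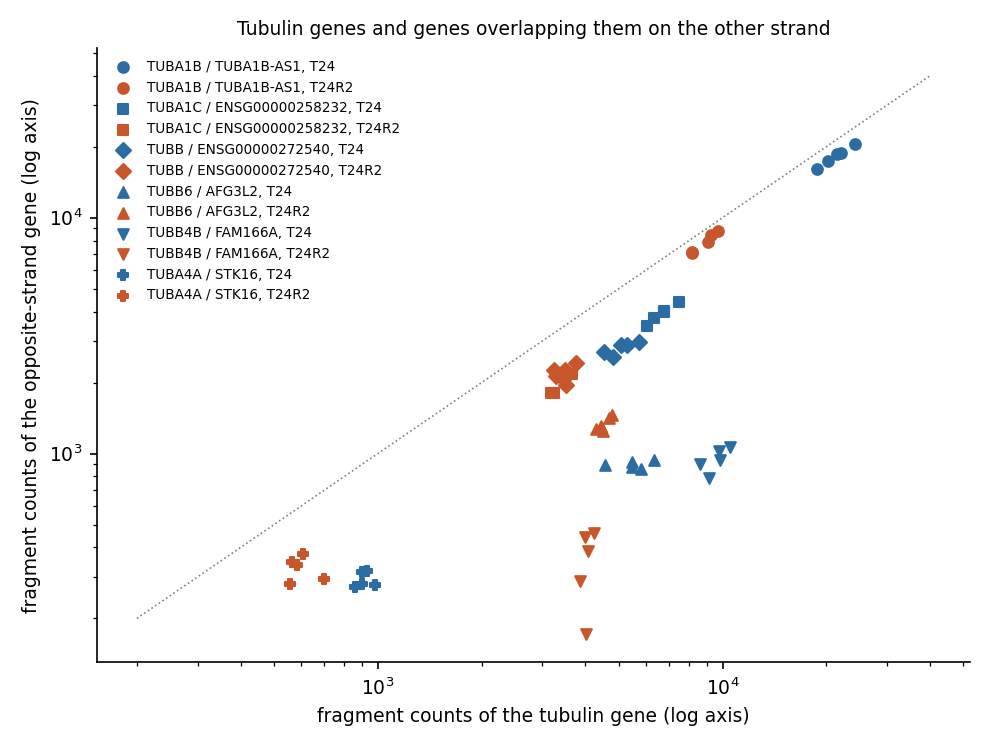
Fragment counts of 6 tubulin genes (horizontal, log axis) against those of the overlapping gene with the most counts on the opposite strand (vertical, log axis), with 1 point per library and a dotted line at equal counts. TUBA1B and TUBA1B-AS1 lie just under the dotted line in both lines of cells, and AFG3L2 is higher in T24R2 (orange triangles) whereas TUBB6 is lower.

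The stretch before the transcription start is shown for the 3 genes with the largest falls among those called, TUBB4B, TUBA1B and TUBA1C. Each is the 250 bases before the RefSeq start (GRCh38.p14), at chr9:137241037-137241286 on the plus strand, chr12:49131396-49131645 on the minus strand and chr12:49264832-49265081 on the plus strand. Capitals mark CCAAT and TATAA and their reverse complements ATTGG and TTATA.
TUBB4B: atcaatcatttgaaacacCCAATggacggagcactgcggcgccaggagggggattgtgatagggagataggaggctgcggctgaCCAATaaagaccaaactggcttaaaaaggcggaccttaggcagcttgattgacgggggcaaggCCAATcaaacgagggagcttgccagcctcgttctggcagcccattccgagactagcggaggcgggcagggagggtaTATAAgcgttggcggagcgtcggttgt
TUBA1B: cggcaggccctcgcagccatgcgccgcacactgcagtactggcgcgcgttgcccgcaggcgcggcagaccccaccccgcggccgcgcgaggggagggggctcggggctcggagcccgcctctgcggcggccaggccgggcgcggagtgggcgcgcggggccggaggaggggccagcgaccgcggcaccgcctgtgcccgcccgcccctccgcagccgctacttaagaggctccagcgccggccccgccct
TUBA1C: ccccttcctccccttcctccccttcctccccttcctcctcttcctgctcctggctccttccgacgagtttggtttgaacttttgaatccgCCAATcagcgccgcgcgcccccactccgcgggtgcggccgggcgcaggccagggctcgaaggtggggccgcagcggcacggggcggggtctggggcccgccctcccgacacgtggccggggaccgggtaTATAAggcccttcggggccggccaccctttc

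CCAAT was found on either strand in the 250 bases before the start of the MANE Select transcript in 7 of the 10 tubulin genes, and in 32.0% of 35116 RefSeq windows of the same length. It occurred 3 times before TUBB4B and 1 time before TUBA1C, and not before TUBA1B, whose window held GGGCGG or its reverse complement CCGCCC 3 times. GGGCGG was found in 8 of the 10 against 42.6% of all windows, and TATAA in 5 of the 10 against 18.9%. TTTGAA (reverse complement TTCAAA) was found in 2 of the 10 against 13.3%, and CACGTG in 1 against 6.34%. Each tubulin gene was counted once, at its MANE Select start, whereas the RefSeq windows also include other starts of a gene. The 10 tubulin genes have 15 such windows, so their shares and those of all windows are not from like sets. These are matches of letters, and their part in the levels of the genes was not tested.

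Of the other alpha and beta tubulin genes, 4 of 10 passed the filter, and all had low counts. TUBB4A, a beta isotype of the nervous system, fell from 1.996 to 0.566 CPM (log2 fold change -1.79, SE 0.35), and TUBAL3 rose from 0.370 to 2.10 CPM (2.48, SE 0.40). TUBB1, the isotype of platelets, had 2.18 and 2.32 CPM, and TUBA4B, which overlaps TUBA4A, had 2.44 and 1.93 CPM, and neither was called.

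Calls in the wider microtubule apparatus went in both directions. Over 7 lists with 109 genes, 95 were tested, of which 21 were higher, 22 lower and 52 not called, with a median log2 fold change of -0.07. The share called was 45.3%, against 51.4% of all tested genes (24.9% higher, 26.5% lower). These lists were chosen with results of these data known, and no list was tested as a set. With scaling by library size only, 27 list genes were higher and 18 lower, against 5206 higher and 3431 lower of all 16181 tested genes.

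Gamma-tubulin ring complexes nucleate microtubules, and of 14 genes of that list, with delta and epsilon tubulin, 7 were lower, 2 higher and 5 not called, a share of 64.3% called against 51.4% of all tested genes. TUBGCP3, a core subunit, fell from 51.8 ± 1.5 to 8.93 ± 1.36 CPM, with a log2 fold change of -2.53 (SE 0.09). TUBG1, the main gamma-tubulin gene, fell from 147 ± 9.41 to 55.5 ± 4.59 CPM (-1.40, SE 0.057). TUBGCP5 and TUBG2 fell by 1.199 and 1.05 on the log2 scale. The median of the list was -0.48.

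Newly made tubulin is folded by prefoldin and the chaperonin CCT and assembled into dimers by cofactors, and of 21 such genes 3 were higher, 2 lower and 16 not called, or 23.8% called against 51.4% of all tested genes. TCP1 and CCT3, subunits of the chaperonin, rose from 219 to 438 CPM (log2 fold change 1.00, SE 0.043) and from 234 to 430.4 CPM (0.88, SE 0.045). The cofactor gene TBCD fell from 99.6 to 56.8 CPM (-0.81, SE 0.067) and the prefoldin gene PFDN6 from 45.03 to 22.3 CPM (-1.01, SE 0.11). The other 6 CCT genes were not called, with log2 fold changes of -0.23 to 0.12.

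TTC5, SCAPER and CNOT11 link excess tubulin dimers to decay of tubulin mRNA through the CCR4-NOT complex. CNOT11 rose from 48.6 ± 2.38 to 77.9 ± 3.37 CPM (log2 fold change 0.68, SE 0.058), and SCAPER rose from 14.7 ± 0.561 to 20.9 ± 2.24 CPM (0.51, SE 0.099), just past the threshold. The call of SCAPER was lost with limma-voom, with DESeq2 and normal shrinkage, and without T24 replicate 1, T24 replicate 2 or T24R2 replicate 3, where its log2 fold change was 0.45 to 0.50. TTC5 itself, with 15.1 ± 2.54 and 16.9 ± 2.03 CPM, was not called (0.16, SE 0.11). Whether these levels bear on the tubulin counts was not tested.

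Enzymes that modify tubulin tails or a lysine inside the microtubule were called for 4 of 20 tested genes (20%), against 51.4% of all tested genes. VASH1, which removes the terminal tyrosine of alpha tubulin, rose from 11.1 to 32.8 CPM (log2 fold change 1.57, SE 0.11). SIRT2, a deacetylase, rose by 0.77 and TTLL11, a polyglutamylase, by 0.62. VASH2, the paralog of VASH1, was called lower at 14 to 24 counts (-0.60, SE 0.27), with an edgeR Benjamini-Hochberg adjusted p of 0.047. Its call was lost with scaling by library size only or by upper quartile, with both DESeq2 fits, with limma-voom and with the replicate block. Leaving out any 1 library except T24 replicate 1 also lost it.

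Of 21 tested microtubule-associated and plus-end proteins, 7 were higher and 4 lower, or 52.4% called against 51.4% of all tested genes. MAPT, which encodes tau, rose from 2.85 ± 0.664 to 26.98 ± 2.27 CPM (log2 fold change 3.23, SE 0.14), and MAP9 and MAP7 rose by 1.58 and 1.41. CKAP5, the microtubule polymerase, fell from 444 ± 13.2 to 186 ± 13.7 CPM (-1.26, SE 0.047). Of 12 tested destabilizing and severing proteins, 7 were lower and 3 higher, or 83.3% called. KIF2C and KIF18A, kinesins that shorten microtubules in mitosis, fell from 239 to 99.0 CPM (-1.27, SE 0.049) and from 50.9 to 23.2 CPM (-1.13, SE 0.076). The severing genes KATNAL1 and FIGN moved in opposite directions, with log2 fold changes of -1.64 and 1.60.

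**Figure D5:**
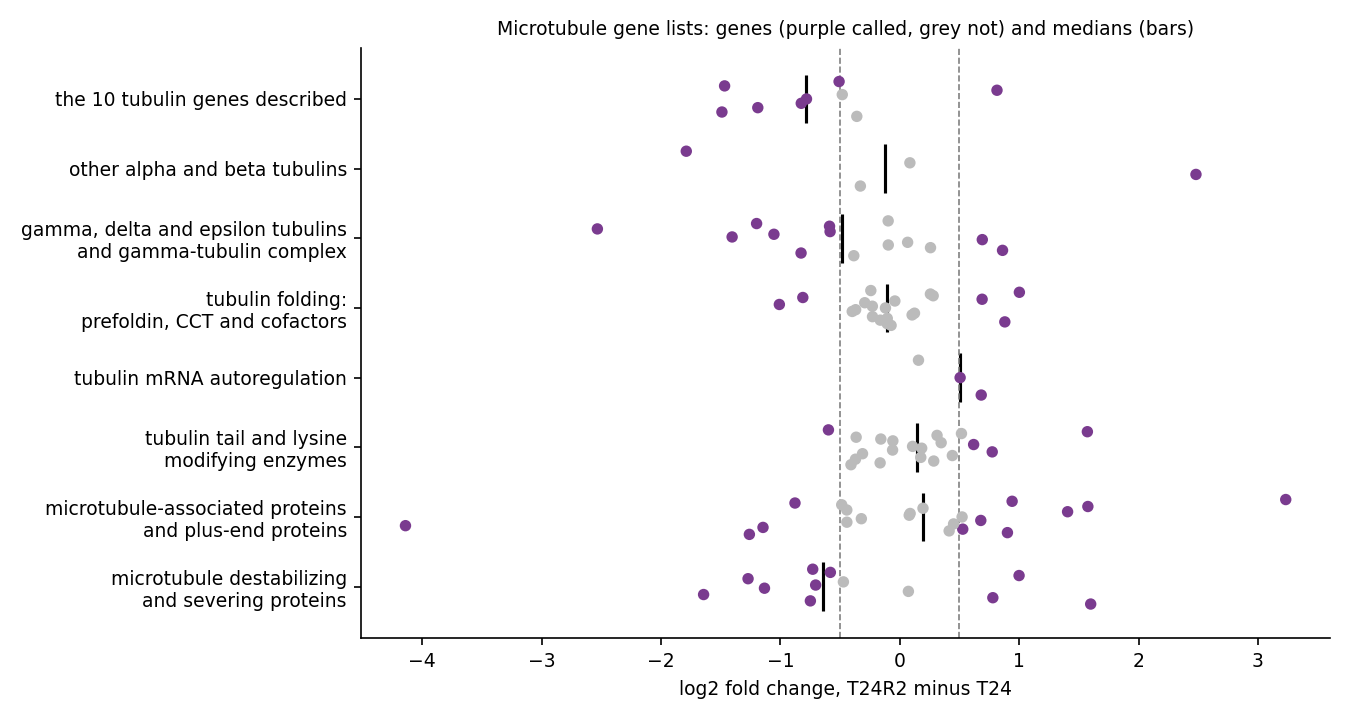
Log2 fold change of T24R2 against T24 for each tested gene of the tubulin list and of 7 microtubule lists (1 point per gene, purple where called), with a black bar at the median of each list and dashed lines at -0.5 and 0.5. The medians run from -0.78 for the 10 tubulin genes, of which 9 are drawn, to 0.51 for the 3 autoregulation genes.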

How the data were processed

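RNA-seq libraries of 5 T24 and 5 T24R2 samples were analysed from the deposited values, which are raw fragment counts per gene without normalization. For these deposited counts the authors used STAR 2.7.0 for alignment to hg38 and samtools 1.10 to drop duplicates and reads with more than 1 placement. Fragments were then assigned to GENCODE release 39 genes by featureCounts 2.0.1 at strand option 1. Removal of duplicates can lower the counts of abundant transcripts such as the tubulins. MeRIP-seq libraries were not analysed here.

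The lines were compared by edgeR 4.0.16 under R 4.3.3 (default filterByExpr filter, 16181 genes; TMM; quasi-likelihood test across all genes; Benjamini-Hochberg adjustment). The study's thresholds defined a call, namely an adjusted p below 0.05 together with a log2 fold change beyond 0.5 in size. TMM factors were 0.936 to 0.951 in T24 and 1.04 to 1.07 in T24R2. Exact permutation tests of CPM, two-sided over the 10 libraries, accompany single genes. The fit was tested on simulated data for 16181 genes, 200 of them shifted by 1 on the log2 scale. There edgeR called 184 of the 200 and 3 others, with a median error of 0.066. In the measured libraries 8309 of the 16181 genes were called, and a fit with that many shifted genes was not tested. Total counts of 9257843 to 10840954 per library set the precision, and the biological coefficient of variation was 6.61%. DESeq2 1.42.0 and limma 3.58.1 (voom) were alternatives.

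Exon overlaps came from the exon coordinates in the tables, the MANE Select transcripts from GENCODE release 44 on hg38 and the windows before the starts from RefSeq. Some coding ends are not reported here. Other steps used Python 3.11.15, pandas 2.3.3, SciPy 1.17.1, Biopython 1.88 and matplotlib 3.10.9.

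The tubulin genes, the microtubule and marker lists and the rules were chosen with earlier results of these data known. The named genes are the 10 tubulin genes, the other alpha and beta tubulin genes that passed the filter, up to 4 called genes of each microtubule list with a mean of at least 5 CPM and the largest absolute fold change, the genes whose exons overlap a tubulin gene, and tubulin pseudogenes that passed the filter. TTC5, VASH2, the marker genes and the tubulin genes that failed the filter were named after their values were seen. Alternatives were the scalings, tools, filters, thresholds, a replicate block, summed paralogs, subtraction of opposite-strand counts, other lengths for shares and leaving out each library. The MANE Select length and the reading of the microtubule lists under each setting were added after the data were seen. Of 9 markers of fibroblasts, endothelium and immune cells, the summed level was 235.7 to 287 CPM in T24, most of it from CDH5 (mean 239 CPM), and 2.85 to 6.05 CPM in T24R2.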

Additional observations from a re-analysis of the deposited data

Results flagged for a closer look

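In 5 of 20 groups of 5 libraries (10 genes in 2 lines), 1 library lay apart from the other 4 by the gap over the range of the group (Dixon's ratio above 0.71), of which chance gives about 1. In T24R2, replicate 3 was the library apart in 4 of the 5. It had 135.4 CPM of TUBA1A where the others had 112.1 to 117.7, 350.4 CPM of TUBA1C against 298.7 to 312.7, 66.99 CPM of TUBA4A against 51.75 to 54.67, and 0.3839 CPM of TUBB2B (4 counts) against 0 to 0.0867. Without this library the log2 fold changes of all 9 tested genes had the same direction and the same 7 genes were called. In T24, replicate 1 had 101.8 CPM of TUBA4A where the others had 96.69 to 97.93, a gap of a few percent of the level. T24R2 replicate 3 also had 2.97% mitochondrial counts and 7.69% of counts in its top 10 genes, where the other T24R2 libraries had 2.35% to 2.58% and 7.04% to 7.19%. The part of these in the gaps was not tested.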

How the results depend on the processing

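No tubulin gene changed direction under any of the 18 to 20 alternatives per gene, and 7 of the 9 tested genes also kept their side of the threshold. TUBB6 lost its call in 8 (range of the log2 fold change -0.76 to -0.34) and TUBB2A gained one in 2, at the same fold change threshold (-0.57 to -0.32). Subtraction of opposite-strand counts, 1 of the alternatives, could only make the values of TUBA1B, TUBB, TUBA4A and TUBB6 more negative. With a mean of at least 100 counts, 10686 genes were tested and 4991 of them were called, 2350 higher and 2641 lower. TUBB3 was not tested there, so 0 tubulin genes were called higher, and 5 of the 8 tested were called lower. With an absolute log2 fold change over 1, 3 tubulin genes (TUBA1B, TUBB4B and TUBA1C, all lower, 0 higher) were called. In that setting 4211 of all 16181 tested genes were called, and of the microtubule lists 19 genes, 7 higher and 12 lower. With no fold change minimum, all 9 tested tubulin genes (8 lower, 1 higher), 12212 of all 16181 tested genes and 70 list genes (33 higher, 37 lower) were called. For these other fold change thresholds the calls over all genes were not split by direction. Without scaling factors, 60.3% of called genes were higher against 48.5%, with the median of all genes at 0.18, and TUBA1A was at -0.20. With a replicate block, 8240 of all genes, the same 7 tubulin genes and 42 list genes were called. The replicate numbers did not pair the samples, since deviations of same-numbered libraries correlated at 0.00626 to 0.0635. Leaving out 1 library gave 8398 to 8466 called genes. Shares moved past 1 SD in 17 of 20 cases with the MANE Select length and in 13 of 20 without length scaling. TUBB2B and TUBB3 were limited by counts under 50 and also by fragments that could not be counted. Of TUBB2B windows 41.6% were repeated, and TUBB3 shares 92.8% of its MANE Select transcript with a gene on the same strand.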

Other observations

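Of the alpha and beta tubulin genes that failed the filter on low counts, TUBA3D had 0.258 ± 0.0563 CPM in T24 and 1.03 ± 0.414 CPM in T24R2 (SD, n = 5 per line), with 2 to 18 counts over the 10 libraries. TUBA8 had 0 to 10 counts, TUBA3E 0 to 3, TUBB8 0 to 2 and TUBB8B 0 to 1, and TUBA3C had 0 in every library.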
